A study of Mus musculus with 6 samples.

Results

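The genes described here encode matricellular proteins and fibronectin, glycoproteins that cells secrete into the extracellular matrix. The group was set by name as Sparc, Sparcl1, Thbs1, Thbs2, Thbs3, Postn, Tnc, Fn1, Cthrc1 and Vcan, and all 10 symbols had exactly 1 row each among the 32479 rows of the deposited expression table. The 6 RNA sequencing libraries came from cardiac fibroblasts isolated, per the labels, from C57BL/6J animals. Of the 6 libraries, 3 were from control mice and 3 from mice that had received carbon tetrachloride (CCl4) as a model of cirrhosis. The sample titles give a replicate number and do not say whether a library is 1 mouse or a pool. CCl4 is a solvent whose metabolism in the liver forms free radicals and whose repeated dosing scars that organ. The dose, route and duration of CCl4, any vehicle given to controls, and the age and sex of the mice were not stated in the labels, and no transgene or knockout is named for either group. Liver scarring was not measured in these data. The study asks how liver cirrhosis acts on the heart.

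Matricellular proteins bind collagen fibres, growth factors and cell receptors and so tune how cells respond to the matrix, while adding little to its mechanical frame. Fibronectin is a fibril-forming glycoprotein that cells assemble on integrin receptors, and collagens and several matricellular proteins attach to it. In the adult heart many of these proteins are scarce and are made again after injury, mainly by activated fibroblasts. SPARC is a collagen-binding protein needed for normal collagen processing, thrombospondins bind the receptors CD36 and CD47 and, in the case of thrombospondin 1, can activate latent TGF-beta, and periostin and tenascin-C mark matrix under repair.

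Promoter sequence is shown for 4 members that differed in their pattern across libraries, Postn and Tnc, which were high in every CCl4 library and in 1 control library, Vcan, whose groups did not overlap, and Thbs2, the member that fell. Each is the 250 bases before a RefSeq transcription start in GRCm38.p6, written 5′ to 3′ on the strand of the gene, with matches to the motifs named after them in capitals.
Postn (chr3:54360857-54361106, plus strand): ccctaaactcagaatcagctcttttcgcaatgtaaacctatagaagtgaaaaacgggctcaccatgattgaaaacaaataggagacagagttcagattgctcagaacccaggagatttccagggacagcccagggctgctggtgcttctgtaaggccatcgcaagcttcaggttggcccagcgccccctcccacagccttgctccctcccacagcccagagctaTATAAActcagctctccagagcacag
Tnc (chr4:64047016-64047265, minus strand): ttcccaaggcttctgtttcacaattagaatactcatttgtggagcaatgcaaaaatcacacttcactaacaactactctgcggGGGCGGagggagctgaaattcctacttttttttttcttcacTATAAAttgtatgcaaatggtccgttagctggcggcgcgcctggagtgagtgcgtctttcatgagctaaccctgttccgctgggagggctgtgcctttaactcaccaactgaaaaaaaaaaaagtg
Vcan (chr13:89742513-89742762, minus strand): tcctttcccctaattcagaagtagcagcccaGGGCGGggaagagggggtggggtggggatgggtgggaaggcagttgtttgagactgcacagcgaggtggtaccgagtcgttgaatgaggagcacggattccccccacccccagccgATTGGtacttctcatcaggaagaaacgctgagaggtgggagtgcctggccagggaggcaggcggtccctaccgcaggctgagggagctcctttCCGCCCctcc
Thbs2 (chr17:14694263-14694512, minus strand): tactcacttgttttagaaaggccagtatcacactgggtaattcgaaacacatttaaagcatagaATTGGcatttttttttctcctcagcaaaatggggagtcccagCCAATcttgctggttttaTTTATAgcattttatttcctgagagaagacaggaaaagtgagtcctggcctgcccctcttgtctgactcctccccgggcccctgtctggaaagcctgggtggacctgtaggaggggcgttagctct
Sought on both strands were TATAAA (the TATA box), CCAAT (bound by NF-Y), GGGCGG (the GC box of Sp1), TGANTCA (the AP-1 site), GGAATG (the core of the TEAD site), the CArG box of serum response factor and GGAGG, which is not capitalised. The motifs and the windows shown were chosen after the sequences and values were seen. Postn had a TATAAA from position -26 to -21 before the start, and Tnc had 1 from -126 to -121 as well as a GGGCGG from -167 to -162. Vcan had 2 GGGCGG, 1 on each strand, and 1 CCAAT on the opposite strand. Thbs2 had 2 CCAAT, 1 on each strand, and a TATAAA on the opposite strand. No capitalised matches overlap one another. Of all 32851 windows of this length 12.4% held TATAAA, 33.8% CCAAT, 32.7% GGGCGG, 6.75% TGANTCA, 12.6% GGAATG and 1.47% a CArG box, and the last 3 of these were in none of the 4 windows. GGAGG was in 66.9% of all windows and occurred 2 times in each of the 4, in Tnc and Vcan overlapping a GGGCGG. Such a match describes the letters of a window and is not evidence of binding. The members had 8 RefSeq windows in all. Of the 4 not shown, those of Sparc and of a second Postn start held none of the 7 motifs, the Thbs3 window held a CCAAT and a GGGCGG as well as GGAGG, and that of a second Tnc start, which overlaps the one shown, held the same TATAAA and GGGCGG. RefSeq windows were at hand for 6 of the 10 members, not for Sparcl1, Thbs1, Fn1 and Cthrc1.

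Expression is given as FPKM, fragments scaled to gene length and to the mapped fragments of the library, so levels can be set beside each other between genes of different length. The group spanned about 3 orders of magnitude. In control libraries Sparcl1 averaged 84.2 FPKM and Sparc 36.3, followed by Thbs2 at 9.60, Postn at 4.17, Thbs1 at 3.77, Fn1 at 3.45, Thbs3 at 1.35, Vcan at 0.53, Tnc at 0.10 and Cthrc1 at 0.07. The control ranges overlapped between each of the neighbours from Thbs2 to Fn1 and between Tnc and Cthrc1, so their order is not resolved there. In CCl4 libraries Postn ranked next after Sparc and Thbs2 ranked behind Fn1, and the ranges of Fn1 and Thbs2, of Thbs3 and Vcan, and of Vcan and Cthrc1 overlapped. Sparcl1 and Sparc lay above 97.5% and 95.6% of the tested rows by mean level, Postn above 68.8%, Fn1 above 49.3% and Thbs3 above 9.0%.

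Of the 10 members, 7 reached the mean of 1 FPKM over the 6 libraries that was required for the test. On the log2(FPKM + 1) scale, tested with limma across all 10995 such rows and called at a Benjamini-Hochberg adjusted p under 0.05, Sparc, Sparcl1 and Postn rose in CCl4, Thbs2 fell, and Fn1, Thbs1 and Thbs3 were not called. Against these 3 rises and 1 fall among 7 stand 31.8% of all tested rows called, 9.64% higher and 22.2% lower. The median log2 fold change was 0.44 over the 7 members and -0.09 over all tested rows. That background depends on scaling. Higher rows made up 30.3% of calls on FPKM as deposited, 12.8% after rescaling to a common sum (TPM) and 51.3% after trimmed mean of M-values (TMM) scaling, with a median log2 fold change over all rows of -0.23 and -0.0058. Between 2 and 4 members were called higher and 1 lower under every setting tried. Of the 7 tested members the groups did not overlap in 3 that were higher and 1 that was lower, beside 14.7% and 34% of all tested rows. Tnc, Cthrc1 and Vcan were under the filter and had no main test. They are described by their values and by the fit with no filter on low values, 1 of the other settings.

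**Figure D1:**
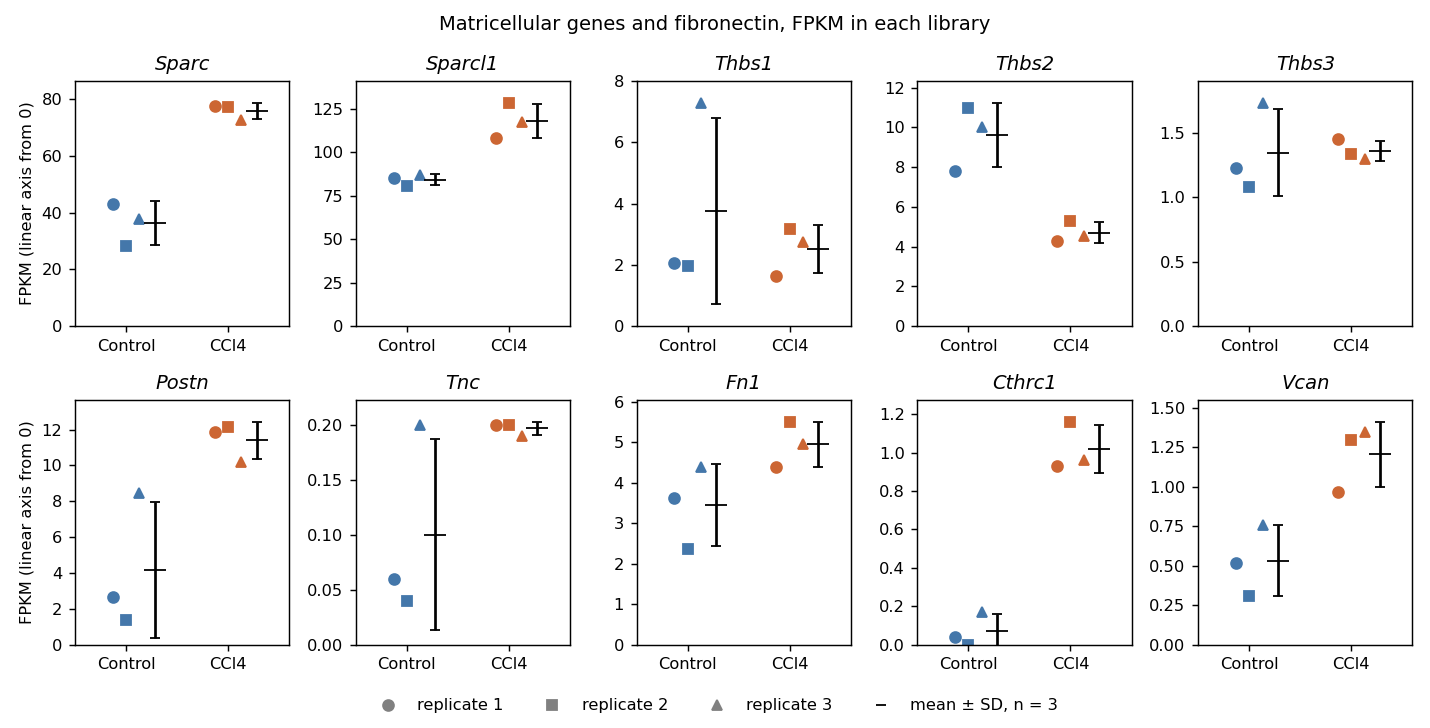
FPKM of the 10 members in each library (linear axes from 0), with control libraries in blue, CCl4 libraries in orange, marker shape giving the replicate number, and black bars giving the mean ± SD of 3 libraries (the lower bar of Cthrc1 is cut at 0). Sparc, Sparcl1, Postn, Cthrc1 and Vcan were higher in every CCl4 library than in any control, and Thbs2 was lower. Control replicate 3 lay above both other controls for every member except Sparc and Thbs2.

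Sparc encodes the collagen-binding protein SPARC (osteonectin) and lies on chromosome 11 at 55394500 to 55423183 in GRCm38, minus strand. It was at 43.2, 28.1 and 37.7 FPKM in control replicates 1 to 3 and at 77.6, 77.1 and 72.6 FPKM in CCl4 replicates 1 to 3. Every CCl4 library lay above every control, and the controls spread more than the CCl4 libraries. The means were 36.3 ± 7.64 and 75.8 ± 2.75 FPKM (SD, n = 3 each), a 2.09-fold ratio, with a log2 fold change of 1.06 ± 0.14 (SE; limma adjusted p = 0.00148). The call held under all 20 other settings, at log2 fold changes from 0.89 to 1.20. In bulk libraries such as these, more cells of a type and more RNA per cell cannot be told apart.

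Sparcl1 encodes the SPARC-like protein hevin, a relative of SPARC that is also made by vessel cells, and lies on chromosome 5 at 104079111 to 104113733, minus strand. It was at 85.0, 80.5 and 87.1 FPKM in the controls and at 108, 128 and 117 FPKM in the CCl4 libraries. Both groups were tight and did not overlap. The means of 84.2 ± 3.38 and 118 ± 10 FPKM differed 1.40-fold, with a log2 fold change of 0.48 ± 0.09 (SE; limma adjusted p = 0.00516), and the call held under all 20 other settings. The smallest log2 fold change, 0.33, came with rescaling to TPM (adjusted p = 0.0241). Sparc was thus 0.430 ± 0.0796 of Sparcl1 in control and 0.646 ± 0.0632 of it in CCl4 mice (SD, n = 3 each). The two-sided exact permutation p was 0.1, the smallest that 3 against 3 libraries allow. Adjusted over 7 ratios, all chosen after the values were seen, it was 0.14. A ratio of genes within a library does not change with the scaling of that library.

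Postn encodes periostin, a matrix protein of activated fibroblasts that binds collagen and integrins, and lies on chromosome 3 at 54361109 to 54391037, plus strand. It was at 2.64, 1.39 and 8.49 FPKM in the controls and at 11.9, 12.1 and 10.2 FPKM in the CCl4 libraries. The groups did not overlap, but control replicate 3 was much nearer to the CCl4 libraries than to the other controls. The means were 4.17 ± 3.79 and 11.4 ± 1.04 FPKM (SD, n = 3 each), with a log2 fold change of 1.51 ± 0.42 (SE; limma adjusted p = 0.0279). Without control replicate 3 the log2 fold change was 2.07 (adjusted p = 0.0004), and without both replicates 3 it was 2.14 (adjusted p = 0.00131). The call was lost with no filter on low values (adjusted p = 0.109), with robust variances (0.102), and on leaving out any 1 of the 5 other libraries (log2 fold changes of 1.07 to 1.58, adjusted p 0.0611 to 0.0857).

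Tnc encodes tenascin-C, a large glycoprotein of healing and developing matrix, and lies on chromosome 4 at 63959785 to 64047015, minus strand. It was at 0.06, 0.04 and 0.20 FPKM in the controls and at 0.20, 0.20 and 0.19 FPKM in the CCl4 libraries. The groups met at 0.20 FPKM, where control replicate 3 equalled the CCl4 level. Without a filter on low values, in a fit over 27449 rows, Tnc was not called (limma adjusted p = 0.253). Its level stayed far under that of the other members in CCl4 libraries, and at 2 decimals such values carry 1 or 2 significant digits.

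Cthrc1 encodes collagen triple helix repeat containing 1, a secreted protein of fibroblasts in injured vessels and hearts, and lies on chromosome 15 at 39076932 to 39087121, plus strand. It was listed at 0.04, 0 and 0.17 FPKM in the controls and at 0.93, 1.16 and 0.96 FPKM in the CCl4 libraries. The groups did not overlap, and the lowest CCl4 library was more than 5 times the highest control. The means were 0.07 ± 0.0889 and 1.02 ± 0.125 FPKM (SD, n = 3 each), the largest ratio of group means in the group. In the fit with no filter its log2 fold change was 0.92 ± 0.09 (SE; limma adjusted p = 0.00382), where 9.53% of 27449 rows were called, 2.99% higher and 6.54% lower, and that scale understates the change of so low a gene. From a rough estimate of depth, about 3, 0 and 10 fragments stood behind the control values and 46, 72 and 51 behind the CCl4 values.

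Vcan encodes versican, a large proteoglycan that binds hyaluronan, and lies on chromosome 13 at 89655312 to 89742509, minus strand. It was at 0.52, 0.31 and 0.76 FPKM in the controls and at 0.97, 1.30 and 1.35 FPKM in the CCl4 libraries. No CCl4 library was as low as any control. The means were 0.53 ± 0.225 and 1.21 ± 0.206 FPKM (SD, n = 3 each), and the fit with no filter did not call it (log2 fold change 0.53 ± 0.14, SE, limma adjusted p = 0.0618).

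Fn1 encodes fibronectin and lies on chromosome 1 at 71585520 to 71653200, minus strand. It was at 3.61, 2.36 and 4.38 FPKM in the controls and at 4.38, 5.50 and 4.95 FPKM in the CCl4 libraries. The groups met at 4.38 FPKM, the highest control and the lowest CCl4 value. The means were 3.45 ± 1.02 and 4.94 ± 0.560 FPKM (SD, n = 3 each), and the log2 fold change of 0.44 ± 0.16 (SE) did not pass (limma adjusted p = 0.0726). It passed with TMM scaling (0.53, adjusted p = 0.0359), quantile normalization (0.0349), median-ratio scaling (0.0329) and library weights (0.0313) and without control replicate 3 (0.59, adjusted p = 0.0246), but not without both replicates 3 (0.0633). Of the fibronectin gene only the whole-gene level was measured, so splice forms with the extra domains of repair matrix are not distinguished.

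The 3 thrombospondins differed from one another. Thbs2 encodes thrombospondin 2, which binds matrix proteases and shapes collagen fibrils, and lies on chromosome 17 at 14665500 to 14694235, minus strand. It was at 7.82, 10.95 and 10.03 FPKM in the controls and at 4.27, 5.31 and 4.52 FPKM in the CCl4 libraries. Every CCl4 library lay under every control. The means were 9.60 ± 1.61 and 4.70 ± 0.543 FPKM (SD, n = 3 each), and the log2 fold change was -0.89 ± 0.13 (SE; limma adjusted p = 0.00182). The fall was called under all 20 other settings, at log2 fold changes from -1.08 to -0.79, while the median of all tested rows ranged from -0.23 to -0.0028 between scalings.

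Thbs1 encodes thrombospondin 1, a platelet and fibroblast protein that can activate latent TGF-beta, and lies on chromosome 2 at 118111876 to 118127133, plus strand. It was at 2.05, 1.97 and 7.28 FPKM in the controls and at 1.64, 3.16 and 2.73 FPKM in the CCl4 libraries. Control replicate 3 stood alone above the 5 other libraries, which overlapped. The log2 fold change was -0.29 ± 0.37 (SE; limma adjusted p = 0.577), and it turned to 0.20 without control replicate 3 (adjusted p = 0.45). Thbs3, a thrombospondin of skeletal and heart tissue, lies on chromosome 3 at 89215180 to 89226837, plus strand, and was at 1.23, 1.08 and 1.73 FPKM in the controls and 1.45, 1.34 and 1.30 FPKM in the CCl4 libraries. The CCl4 values lay within the control range, with a log2 fold change of 0.02 ± 0.11 (SE; limma adjusted p = 0.907). Its exons share 318 bases with Mtx1 on the opposite strand, a gene at a mean of 3.52 FPKM, and the sources used here do not give the strand setting of the quantification, so reads of these genes may not be told apart.

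**Figure D2:**
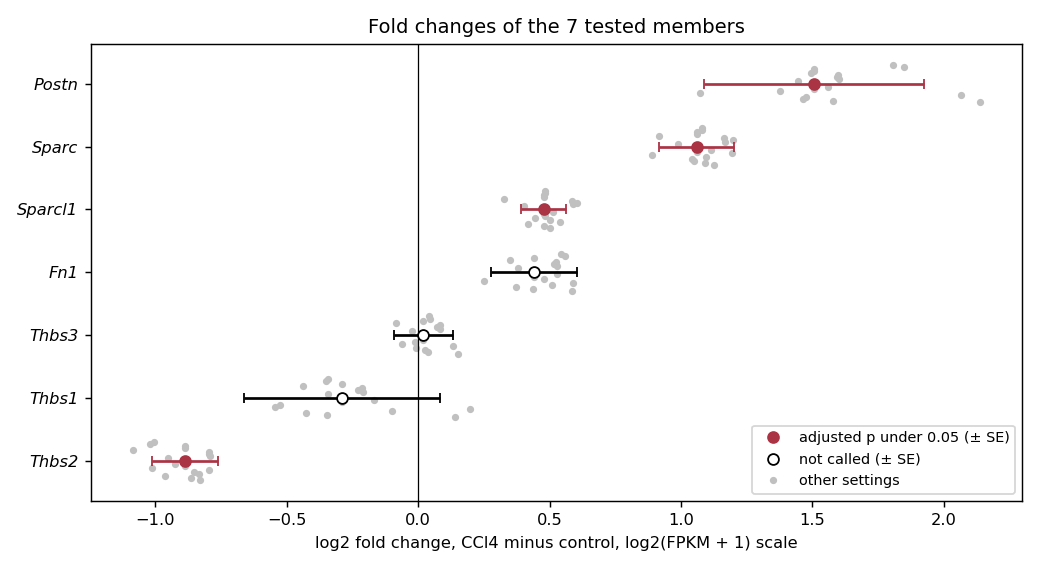
Log2 fold changes of the 7 tested members, CCl4 minus control on the log2(FPKM + 1) scale, with SE bars, filled red where the limma adjusted p was under 0.05, and with grey dots for the other settings. Sparc, Sparcl1 and Postn lay above 0 and Thbs2 below 0 at every dot, Postn spread from 1.07 to 2.14, and Thbs1 and Thbs3 had dots on both sides of 0.

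Summed over the 10 members the level was 146, 127 and 158 FPKM in the controls and 211, 235 and 216 FPKM in the CCl4 libraries, means of 144 ± 15.7 and 221 ± 12.6 FPKM (SD, n = 3 each), with an exact permutation p = 0.1. Sparcl1 and Sparc made up most of that sum. The share of Sparc was 25.2% in control and 34.4% in CCl4 libraries, that of Sparcl1 59.0% and 53.3%, and that of Thbs2 6.78% and 2.12%. The share of Postn was 1.81%, 1.1% and 5.38% in control replicates 1 to 3 and 5.61%, 5.16% and 4.72% in the CCl4 libraries, so that the groups overlapped. Its control mean was 2.76%, and 1.45% without control replicate 3. Divided by the summed FPKM of 10 fibroblast markers other than collagens (Pdgfra, Tcf21, Dcn, Gsn, Lum, Dpt, Mfap5, Pi16, Ddr2 and Fbln1), the members' sum was 0.271, 0.273 and 0.207 in the controls and 0.381, 0.422 and 0.386 in the CCl4 libraries (exact permutation p = 0.1). Gsn and Dcn, neither of them called, made up 87.2% to 89.0% of this denominator in the controls and 78.4% to 79.3% in CCl4 libraries, so the ratio is largely one to those genes.

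Set against Col1a1, the chain of type I collagen that rose from 4.02 ± 1.24 to 17.2 ± 1.12 FPKM (SD, n = 3 each), the members moved unequally. Of 7 ratios chosen after the values were seen, Sparc was 9.26 ± 1.16 times Col1a1 in control and 4.43 ± 0.390 times in CCl4 mice, and Fn1 was 0.870 ± 0.147 and 0.290 ± 0.0515 times it (SD, n = 3 each; exact permutation p = 0.1 and adjusted p = 0.14 for each). The groups did not overlap in either ratio. Postn was 0.522, 0.525 and 1.95 times Col1a1 in the controls and 0.665, 0.764 and 0.575 times in the CCl4 libraries, so that these groups did overlap (exact permutation p = 1). Thbs3 was 0.143 ± 0.0390 and 0.293 ± 0.0439 times Thbs2, and Postn was 0.731, 0.589 and 1.94 times Fn1 in the controls and 2.71, 2.21 and 2.06 times in the CCl4 libraries (exact permutation p = 0.1, adjusted p = 0.14, each), while Thbs1 to Thbs2 was 0.389 ± 0.294 and 0.528 ± 0.124 (exact permutation p = 0.4, adjusted p = 0.467).

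By coefficient of variation the controls varied more than the CCl4 libraries in every member but Sparcl1. In control replicate 3 Postn was 4.21 times, Tnc 4.0 times and Thbs1 3.62 times the mean of the other 2 controls. Sparc, Sparcl1 and Thbs2 were at 1.06, 1.05 and 1.07 times the mean of those 2 controls. Among fibroblast and collagen genes Col1a1 was at 1.13, Pdgfra at 1.31, Col3a1 at 1.44 and Dcn at 1.69 times that mean. The coefficient of variation over the 3 controls was 90.8% for Postn, 80.8% for Thbs1 and 21.0% for Sparc, against 9.12%, 31.2% and 3.62% over the CCl4 libraries.

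**Figure D3:**
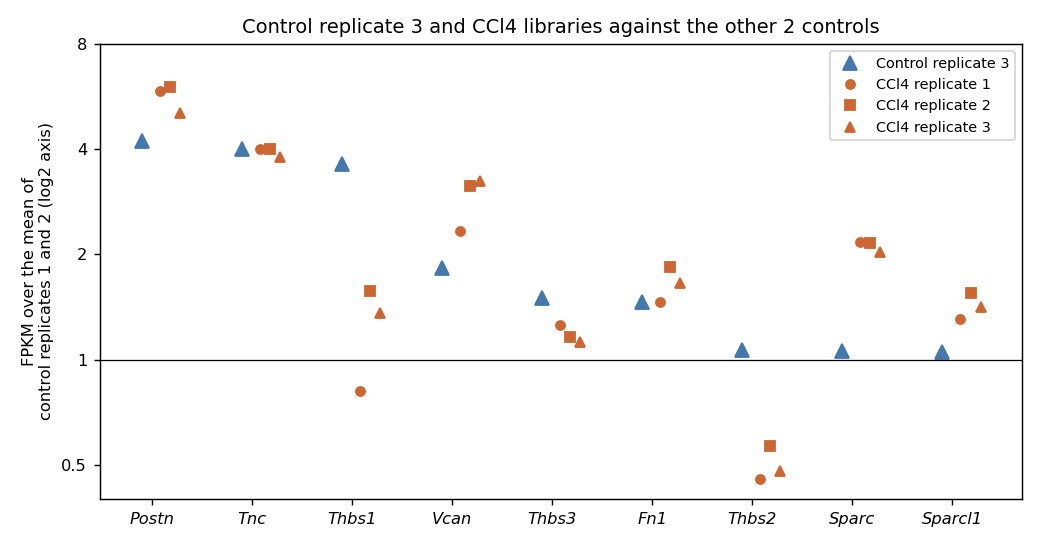
FPKM of control replicate 3 (blue triangles) and of each CCl4 library (orange) divided by the mean of control replicates 1 and 2, for 9 members on a log2 axis; Cthrc1 is left out because that mean is 0.02 FPKM. Control replicate 3 was at 3.62 to 4.21 times the other controls for Postn, Tnc and Thbs1, at 1.47 to 1.83 times for Fn1, Thbs3 and Vcan, and close to 1 for Thbs2, Sparc and Sparcl1.

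Some other transcripts set the same library apart. The 6 atrial markers (Nppa, Sln, Myl7, Myl4, Bmp10 and Gja5) summed to 1606 FPKM in control replicate 3 and to 160 to 281 FPKM in the 5 other libraries. Nppa alone was at 1501 FPKM in control replicate 3, so that sum is largely 1 gene. Bmp10, a growth factor of the right atrium, was at 16.2 FPKM in that library and at 0 to 0.01 FPKM elsewhere. Myl7, the atrial myosin light chain, was at 57.2 FPKM there, 39.2 in CCl4 replicate 3 and 1.68 to 8.56 in the rest. Sln and Myl4 were at 19.9 and 11.3 FPKM in control replicate 3 and next highest in CCl4 replicate 3, at 5.32 and 7.15. Gja5 was at 1.19 FPKM in control replicate 3 and higher in CCl4 replicates 2 and 3, at 1.74 and 1.55. The 7 valve and tendon genes summed to 53.1 FPKM in control replicate 3, to 8.85 and 13.6 in the other controls and to 18.2 to 30.4 in CCl4 libraries. Cilp and Comp, at 22.25 and 16.2 FPKM, made up most of the sum in control replicate 3. These genes and Fmod (5.15 FPKM) were highest in that library, while Scx, Tnmd, Chad and Prg4 were each higher in at least 1 other library. The part of these atrial, valve and tendon genes in the values of Postn, Tnc and Thbs1 was not tested. Leaving out control replicate 3 kept the calls of Sparc, Sparcl1, Postn and Thbs2.

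Markers of heart muscle cells were far higher than those of fibroblasts in every library, against the label of isolated fibroblasts. The 10 cardiomyocyte markers summed to 11160 to 13870 FPKM in the controls and 17170 to 18940 in CCl4 libraries, with 2 called higher and 0 lower. Actc1, the cardiac actin, made up most of that difference in the sum, at 1735 ± 477 and 5840 ± 261 FPKM (SD, n = 3 each; limma adjusted p = 0.00037). The other called gene was Myl2 (limma adjusted p = 0.0489), whose call was lost under 10 of 20 other settings. Among the uncalled markers Myh6 was at 1303 ± 600 and 2115 ± 242 FPKM (SD, n = 3 each; limma adjusted p = 0.0542). Mb and Tnni3 had ratios of CCl4 to control means of 1.135 and 1.126, and Pln, Tnnt2, Ttn, Actn2 and Ryr2 had ratios from 0.961 to 1.118. The 12 fibroblast markers summed to 471 to 772 and 585 to 591 FPKM, with 5 called higher and 0 lower, and none was at 0 in any library. Pdgfra, the receptor that marks fibroblasts, was at 3.97 ± 0.654 and 3.58 ± 0.105 FPKM (limma adjusted p = 0.428), while the collagen-binding proteoglycan gene Lum rose from 10.7 ± 2.42 to 33.8 ± 1.89 FPKM and Dpt from 25.2 ± 7.68 to 43.8 ± 2.02 (limma adjusted p = 0.000326 and 0.0123; Dpt 0.0552 with no filter). The other rises were Col1a1, Col1a2 and Ddr2. Over all tested rows 9.64% were called higher and 22.2% lower. The 8 endothelial markers summed to 123 to 139 and 138 to 156 FPKM (1 higher, 1 lower), the 9 of smooth muscle and pericytes to 234 to 258 and 188 to 276 (2 higher, 0 lower), and the 7 of macrophages to 119 to 154 and 136 to 151 (1 higher, 1 lower). The 6 platelet markers summed to 7.34 to 9.39 and 7.82 to 10.03 FPKM and the 8 epicardial markers to 1.18 to 6.58 and 1.12 to 3.67, with Gp5 and Krt8 at 0 in at least 1 library. The part of these cell types in the members' changes was not tested.

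The wider family of matricellular and matrix glycoprotein genes moved in both directions. Of 36 genes listed, 27 were tested, 10 rose and 4 fell, where 9.64% of all tested rows rose and 22.2% fell, with a median log2 fold change of 0.33 against -0.09 over all rows. Ecm1, a glycoprotein that binds other matrix proteins, rose from 6.92 ± 2.04 to 14.5 ± 0.969 FPKM (SD, n = 3 each; limma adjusted p = 0.0035). Smoc2, which like SPARC carries a follistatin-like and an extracellular calcium-binding domain, rose from 5.13 ± 0.720 to 9.45 ± 0.285 FPKM, Fstl1, another SPARC relative, from 9.68 ± 3.35 to 18.6 ± 1.75, and Igfbp7 from 59.2 ± 15.8 to 106 ± 6.44 (limma adjusted p = 0.0012, 0.0107 and 0.00839). The elastic-fibre glycoproteins Emilin1, Efemp1 and Efemp2 rose by 0.64, 0.86 and 0.53 on the log2 scale. The 4 falls were Ccn2, from 86.4 ± 20.5 to 14.1 ± 2.55 FPKM, the testican Spock2, another SPARC relative, from 7.00 ± 1.35 to 1.08 ± 0.264, Ccn1, from 23.1 ± 5.75 to 13.3 ± 0.702, and Tgfbi, the closest relative of periostin, from 6.70 ± 1.92 to 4.10 ± 0.0985 (limma adjusted p = 0.000121, 0.000124, 0.00919 and 0.0246). Tgfbi lost its call with no filter (adjusted p = 0.0892), when any 1 CCl4 library was left out (0.0626 to 0.0728) and without both replicates 3 (0.0642), and Fstl1 with no filter (0.0513). Spp1, the gene of osteopontin, missed the filter at 0.73, 0.09 and 0.48 FPKM in the controls and 0.44, 1.34 and 0.89 in the CCl4 libraries.

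Receptors of these proteins moved in both directions. Of 22 listed, 16 were tested, 3 rose and 6 fell, where 9.64% of all tested rows rose and 22.2% fell, and the median log2 fold change of -0.07 was near the -0.09 of all rows. The counts were 4 higher and 4 lower with TMM, quantile or median-ratio scaling and without control replicate 1, and 3 and 3 with no filter. They were 5 higher and 3 lower without control replicate 3, 2 and 3 without CCl4 replicate 1, and 1 higher without CCl4 replicate 2 or CCl4 replicate 3. The thrombospondin receptors Cd36, also the fatty acid transporter of heart muscle and capillaries, and Cd47 fell from 573 ± 43.3 to 332 ± 28.0 FPKM and from 10.9 ± 0.668 to 7.33 ± 0.473 FPKM (SD, n = 3 each; limma adjusted p = 0.000999 and 0.003). The integrin subunit Itgb5, a partner in vitronectin and periostin binding, fell from 46.7 ± 5.06 to 25.2 ± 2.14 FPKM (limma adjusted p = 0.000902), and Cd44, the hyaluronan receptor, from 1.777 ± 0.253 to 1.003 ± 0.329 (limma adjusted p = 0.0289). Cd44 lost its call with no filter, on leaving out CCl4 replicate 1 or either of the controls numbered 1 and 3, and without both replicates 3 (adjusted p 0.0541 to 0.102). Itga5 and Itgb1, the chains of the fibronectin receptor, fell by 0.31 and 0.30 on the log2 scale (limma adjusted p = 0.0272 and 0.0314), and both calls were lost with TMM, quantile and median-ratio scaling (adjusted p 0.0818 to 0.173), and with no filter or most single libraries left out (0.0509 to 0.0908). Ddr2, a collagen receptor of fibroblasts, Sdc3 and the tenascin-C receptor chain Itga9 rose by 0.41, 0.35 and 0.35 (limma adjusted p = 0.0121, 0.0174 and 0.0298). Sdc3 and Itga9 lost their calls as TPM (0.118 and 0.111), without control replicate 2, CCl4 replicate 2 or CCl4 replicate 3 (0.0616 to 0.0887) and without both replicates 3, and Itga9 also with no filter, with mitochondrial rows removed and without CCl4 replicate 1 (0.056 to 0.089). With the replicate number as a block, Sdc3, Itga9 and Itgb1 were not called (limma adjusted p = 0.0525, 0.0636 and 0.0805). Itgav was at 1.503 ± 0.225 and 1.36 ± 0.258 FPKM (limma adjusted p = 0.564) and Sdc4 at 6.01 ± 1.17 and 4.80 ± 0.711 FPKM (0.182; 0.0438 without control replicate 2).

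Among partners and processing enzymes of the members, more genes rose than fell. Of 39 listed, 27 were tested, 14 rose and 3 fell, where 9.64% of all tested rows rose and 22.2% fell, with a median log2 fold change of 0.37. The collagen genes among them are targets of SPARC and fibronectin binding. Col3a1 rose from 4.88 ± 1.97 to 31.6 ± 1.47 FPKM (SD, n = 3 each; limma adjusted p = 0.000326), and Col1a2 and Col5a1 rose by 1.27 and 1.15 on the log2 scale. Pcolce, the enhancer of the procollagen protease Bmp1, rose from 4.66 ± 1.26 to 12.5 ± 0.921 FPKM, the collagen chaperone Serpinh1 from 27.8 ± 3.91 to 49.8 ± 2.14, and the crosslinking enzyme Loxl2 from 1.79 ± 0.493 to 4.09 ± 0.792 (limma adjusted p = 0.000999, 0.00133 and 0.00541). The fibrillin Fbn1 and the procollagen protease Adamts2 rose by 0.85 and 0.55. Adamts1, a protease that cuts versican, fell from 12.2 ± 4.02 to 3.92 ± 0.0751 FPKM (limma adjusted p = 0.00142). The other falls, named after their values were seen, were Lox, a crosslinking enzyme of collagen and elastin, from 2.81 ± 0.677 to 1.53 ± 0.0306 FPKM, and the matrix protease Mmp3, from 4.91 ± 1.83 to 1.58 ± 0.691 (limma adjusted p = 0.00974 and 0.0114). Mmp3 lost its call with no filter (0.0572) and without both replicates 3 (0.0675). Mmp2, a gelatinase that thrombospondin 2 binds, was at 14.5 ± 4.80 and 22.2 ± 0.679 FPKM (limma adjusted p = 0.038), which did not pass on leaving out any 1 library except control replicate 3 (adjusted p 0.0751 to 0.0967), with no filter (0.124), as TPM (0.0686) and with robust variances (0.0528). Tgfb1, an inducer of many of the members, was at 2.68 ± 0.501 and 3.29 ± 0.0808 FPKM (limma adjusted p = 0.129; 0.0386 without control replicate 3).

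**Figure D4:**
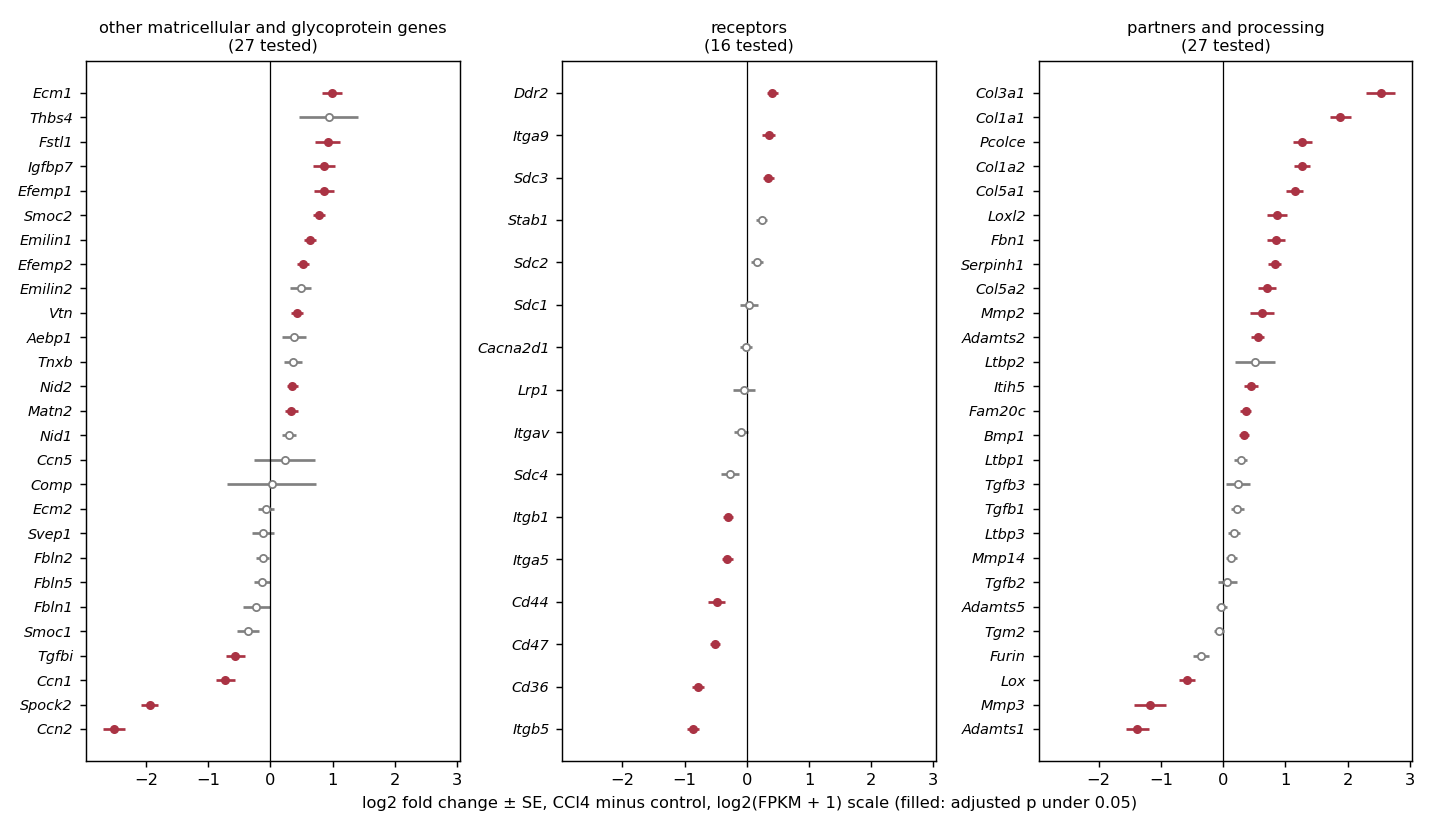
Log2 fold changes with SE, CCl4 minus control on the log2(FPKM + 1) scale, of the tested genes in the lists of other matricellular and glycoprotein genes, receptors, and partners and processing genes, filled red where the limma adjusted p was under 0.05. The glycoprotein and partner lists held more rises than falls (10 and 4, 14 and 3), and the receptors 3 rises and 6 falls, where all tested rows held 1060 and 2441.

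Genes whose log2 values ran most alike over the 6 libraries were sought for the tested members other than Thbs3 among non-member rows. By Pearson correlation, given as a description in which the group difference enters every value, Sparc ran most like Rassf3 (0.998), Marcks (0.998) and Serpinh1 (0.997). Postn ran most like Col8a1 (0.997), a short-chain collagen at 1.84 FPKM in control and 3.69 in CCl4 libraries, Plscr3 (0.997) and Klhl4 (0.995). Thbs2 ran most like Akap8 (0.9996), Acsf2 (0.999) and the mitochondrial transcript mt-Te (0.999), and Fn1 most like Jak3 (0.994), Ltbp4 (0.990) and Sema3f (0.987). For Sparcl1 they were Itpkb (0.996), Pxdn (0.992) and Gimap8 (0.992), and for Thbs1 Pakap (0.995), Ino80c (0.991) and Stk19 (0.990).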

How the data were processed

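The deposited table holds FPKM values, 1 column per library at 2 decimals, and the submitters' processing notes name StringTie 2.1.6 and the build GRCm38 for the values the authors deposited. For the aligner, annotation release, filters and strand setting nothing is given in the sources used here. FPKM sums ran from 519609 to 602763 per library, and rows of the mitochondrial genome took 48.6% to 53.2% of them, so 5 further scalings were compared. The products of low FPKM values and gene length in 3638 single-exon genes gave a rough depth of 30800000 to 40800000 fragments per library, but only 26.9% to 33.7% of low values lay within 0.1 of a whole fragment, so no count test was run.

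Values were transformed to log2(FPKM + 1). Rows with a mean of at least 1 FPKM were tested in R 4.3.3 by limma 3.58.1, using lmFit and eBayes (trend), as a two-sided test without covariates, with Benjamini-Hochberg adjustment over all rows tested and a threshold of 0.05. The fit was tested on simulated data. Fold changes on this scale understate the change of low genes. Single measures per library were compared by exact permutation tests. TMM factors were computed from the FPKM of the tested rows. Alternatives were a pseudocount of 0.1 or 0.01, a minimum mean of 0 or 5 FPKM, the 5 scalings, 3 variance models, the replicate number as a block, and each library left out, to which leaving out both replicates 3 was added after seeing the data. The members and gene lists were chosen with earlier results of these data known, and the ratios, the comparison of control replicate 3 and the 7 motifs after values were seen. All members were named, with up to 10 called genes of each list by smallest p, 14 genes named whatever their result, and the 3 most alike rows of each tested member except Thbs3. Other genes given with values are Lox, Mmp3 and genes of the marker lists, named after their values were seen, and Mtx1, which overlaps Thbs3. Positions are those of GENCODE M21, matched by symbol. The results of 1 marker list and of the rows most like Thbs3 are not reported here.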

Additional observations from a re-analysis of the deposited data

How the results depend on the processing

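The calls of Sparc, Sparcl1 and Thbs2 and their directions were kept under all 20 other settings, and the members called numbered 2 to 4 higher and 1 lower (3 with no filter, where Cthrc1 is called and Postn is not). Counts over all rows, 1060 higher and 2441 lower, moved to 655 and 1510 at a mean of at least 5 FPKM, 617 and 4221 as TPM, 1705 and 1616 with TMM, 1713 and 1574 with median-ratio scaling, 1722 higher with quantile normalization, 631 to 1152 higher and 1549 to 2108 lower with 1 library left out (lowest without CCl4 replicate 3; 655 higher without control replicate 2), and 548 and 1082 without both replicates 3. At a mean of at least 5 FPKM, where fewer genes are tested, 5 other matricellular genes, 1 receptor and 6 partners were higher. Of receptors 1 was higher as TPM, 3 lower with no filter, 1 to 5 higher and 3 to 6 lower with 1 library left out, and 1 higher and 3 lower without both replicates 3. Thbs1 ran from -0.54 to 0.20 with 1 library left out, reversed without control replicate 3 (0.20) and without both replicates 3 (0.14). Thbs3, near 0, reversed to -0.083 as TPM and -0.023 with mitochondrial rows removed, ran from -0.063 to 0.15 with libraries left out, and was below 0 without CCl4 replicate 1 or either of the controls numbered 1 and 2. Itgav ran from -0.14 to 0.0047, above 0 without CCl4 replicate 1. Apart from changes that follow from fewer genes or samples, the cause was not tested. With the replicate number as a block 2651 rows were called in place of 3501, the members' calls were kept, and 1 receptor was higher, with Sdc3, Itga9 and Itgb1 not called (adjusted p 0.0525, 0.0636 and 0.0805). The labels do not say whether the numbers pair the mice. Deviations of same-numbered libraries correlated at -0.064, 0.046 and -0.038, and no control library correlated best with its own number. With 3 libraries per group these correlations cannot settle whether there was a pairing. Depth is known only roughly, which limits Tnc and Cthrc1 most. Exact tests on 3 libraries per group cannot go below p = 0.1.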
